A study of Homo sapiens with 6 samples.

Results

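The aldehyde dehydrogenase genes described here are ALDH1A1, ALDH1A3, ALDH1B1, ALDH2, ALDH3A2, ALDH3B1, ALDH3B2, ALDH7A1, ALDH9A1 and ALDH16A1. They were taken by gene name, and all 10 were found among the 45019 rows of the deposited tables. The cells were MDA-MB-468, a widely used human breast cancer line that lacks estrogen and progesterone receptor protein and HER2 amplification, grown in medium with fetal bovine serum. One group was untreated at day 10, and the other was given DETA/NO, a slow nitric oxide donor, at 100 µM for 10 days. Cells were counted and replated every 48 h, with 4 h to adhere before DETA/NO was added again. Dishes were pooled within a replicate. The series concerns nitric oxide as an inhibitor of the RNA demethylase FTO and the transcription of genes that respond to it. Of 3 samples labelled in each group, DETA/NO samples 1 and 2 had files with the same value in every row and were counted as 1 library, the shared DETA/NO library, which left n = 3 untreated and n = 2 DETA/NO libraries. Nothing in the labels ties the samples to separate cultures, so the tests measure the spread between these libraries, which may be technical.

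Aldehyde dehydrogenases oxidise reactive aldehydes to carboxylic acids with NAD or NADP, through a cysteine in the active site. The ALDH1A enzymes turn retinaldehyde into retinoic acid, the ligand of the nuclear retinoic acid receptors, while other members clear acetaldehyde, aldehydes from lipid breakdown and intermediates of amino acid and carnitine metabolism. High aldehyde dehydrogenase activity, to which ALDH1A1 and ALDH1A3 contribute, is used to mark stem-like cells in breast cancer.

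Recovered read totals ran from 28897422 to 34637343 per library, and 22374 to 22614 genes had a value above 0. The EGFR gene, amplified in this line, had 217563 to 226490 normalized reads in untreated libraries, and the basal keratin gene KRT5 had 26359 to 29877. KRT14, another basal keratin gene, had a mean of 721. Summed values of 5 luminal markers were 7698 to 8064 in untreated and 8285 to 8719 in DETA/NO libraries. Of the 4 that passed the filter, ESR1 and GATA3 rose, ERBB2 fell and FOXA1 was not called. ESR1, the estrogen receptor gene, had 823 to 846 in untreated and 925 and 1093 in DETA/NO libraries. Summed values of 6 fibroblast markers were 578 to 635 in untreated and 840.4 to 849.9 in DETA/NO libraries, nearly all from COL1A1. Those of 5 immune markers were 923 to 976 and 428 to 492, nearly all from CD14, while PTPRC, the other immune marker that passed the filter, had a mean of 13.3 in untreated and 33.8 in DETA/NO libraries (log2 fold change 1.33, limma adjusted p = 0.000984). Those of 4 endothelial markers were 325 to 363 and 499 to 558, and those of 4 adipocyte markers 49.7 to 73.0 and 47.5 to 48.8. The adipocyte gene FABP4 was listed at 0 in every library, but other genes overlapped 100% of its span. The fibroblast genes DCN, LUM and COL1A2 had at most 2 reads in any library. The part of these markers in the results was not tested, and in bulk RNA fewer cells of a type and less RNA per cell cannot be told apart.

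The sequences just before the start sites are shown for 4 members that passed the test below, to set the letters of genes that fell beside those of genes that rose. ALDH3B1, which also rose, had windows too, and these are counted among the member windows below but not printed. The RefSeq start sites at hand covered 7 of the 10 members, with 9 windows of 250 bases in all (build GRCh38.p14). None was at hand for ALDH2 and ALDH3B2, which had the largest falls, or for ALDH16A1. Each sequence reads 5′ to 3′ on the gene's strand and ends at the base before the start. The windows of ALDH1A1, ALDH1A3 and ALDH9A1 lie inside the GENCODE gene spans given below, and that of ALDH1B1 overlaps its span in part. Capitals mark CCAAT, the CCAAT box, and GCGTG, the core bound by the aryl hydrocarbon receptor, on either strand.
ALDH1A1 (fell), chr9:72953054-72953303, minus strand: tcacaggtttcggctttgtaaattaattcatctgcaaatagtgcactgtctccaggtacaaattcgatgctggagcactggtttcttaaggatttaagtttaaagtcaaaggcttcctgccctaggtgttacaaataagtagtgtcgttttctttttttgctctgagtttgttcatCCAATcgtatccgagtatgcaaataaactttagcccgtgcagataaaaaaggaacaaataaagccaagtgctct
ALDH9A1 (fell), chr1:165698563-165698812, minus strand: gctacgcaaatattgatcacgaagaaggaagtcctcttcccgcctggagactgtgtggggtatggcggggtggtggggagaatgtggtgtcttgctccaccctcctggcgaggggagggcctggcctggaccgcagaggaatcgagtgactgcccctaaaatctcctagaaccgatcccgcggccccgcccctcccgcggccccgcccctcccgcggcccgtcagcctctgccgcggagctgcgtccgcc
ALDH1A3 (rose), chr15:100879581-100879830, plus strand: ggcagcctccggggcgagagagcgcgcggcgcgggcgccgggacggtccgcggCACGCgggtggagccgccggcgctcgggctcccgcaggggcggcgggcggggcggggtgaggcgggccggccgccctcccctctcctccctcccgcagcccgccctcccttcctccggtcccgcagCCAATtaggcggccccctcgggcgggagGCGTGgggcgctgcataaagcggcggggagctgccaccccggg
ALDH1B1 (rose), chr9:38392452-38392701, plus strand: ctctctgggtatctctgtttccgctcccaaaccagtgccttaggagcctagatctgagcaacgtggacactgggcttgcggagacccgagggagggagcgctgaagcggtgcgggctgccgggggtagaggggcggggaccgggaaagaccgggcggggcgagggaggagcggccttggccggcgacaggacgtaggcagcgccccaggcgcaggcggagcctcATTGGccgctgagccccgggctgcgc

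The ALDH1A1 window was poor in G and C, at 38.4%, where the median over all 35116 windows in the table was 58.0%. That of ALDH1A3 had 82.4%, ALDH1B1 70.4% and ALDH9A1 67.2%. CCAAT was in 5 of the 9 member windows and in 32.0% of all windows, and it stood at -74 to -70 from the start in ALDH1A1 and at -71 to -67 in ALDH1A3. GCGTG was in 2 of the 9, 1 of ALDH1A3 and 1 of ALDH3A2, and in 32.2% of all. The GC box GGGCGG was in 6 of the 9 and in 42.6% of all, with 6 matches in the ALDH1A3 window and none in that of ALDH1A1. The antioxidant response core TGACNNNGC (10.9% of all windows), the TATA core TATAA (18.9%) and the nuclear receptor recognition core AGGTCA (12.1%) were in 0 of the 9. Both strands were searched, neighbouring GC box matches of ALDH1A3 shared a base, and a match is a run of letters, not a bound site.

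After 10 days of DETA/NO, ALDH2 fell by 48.0%, ALDH3B2 fell by 43.6%, ALDH1A1 fell by 42.6% and ALDH9A1 fell by 21.5%, while ALDH1B1, ALDH1A3 and ALDH3B1 were higher by 14.4% to 18.2% (from the fitted log2 fold changes). ALDH3A2, ALDH7A1 and ALDH16A1 did not pass the test. All 10 members passed the filter on low values (a mean of at least 10 normalized reads). Of them, 3 rose and 4 fell with limma on log2(value + 1) at a Benjamini-Hochberg adjusted p of 0.05 over all 16409 tested genes, of which 43.4% were called (21.7% higher and 21.7% lower). The median log2 fold change was -0.01 over the members and -0.00016 over all tested genes. In 7 of the 10 members the groups did not overlap, as was so for 61.2% of all tested genes. The 4 falls were called under all 16 other settings that were run. The count of rises was 1 without untreated library 1, 1 without untreated library 2, 1 without DETA/NO library 3, and 0 in limma without the mean-variance trend and the robust option.

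**Figure D1:**
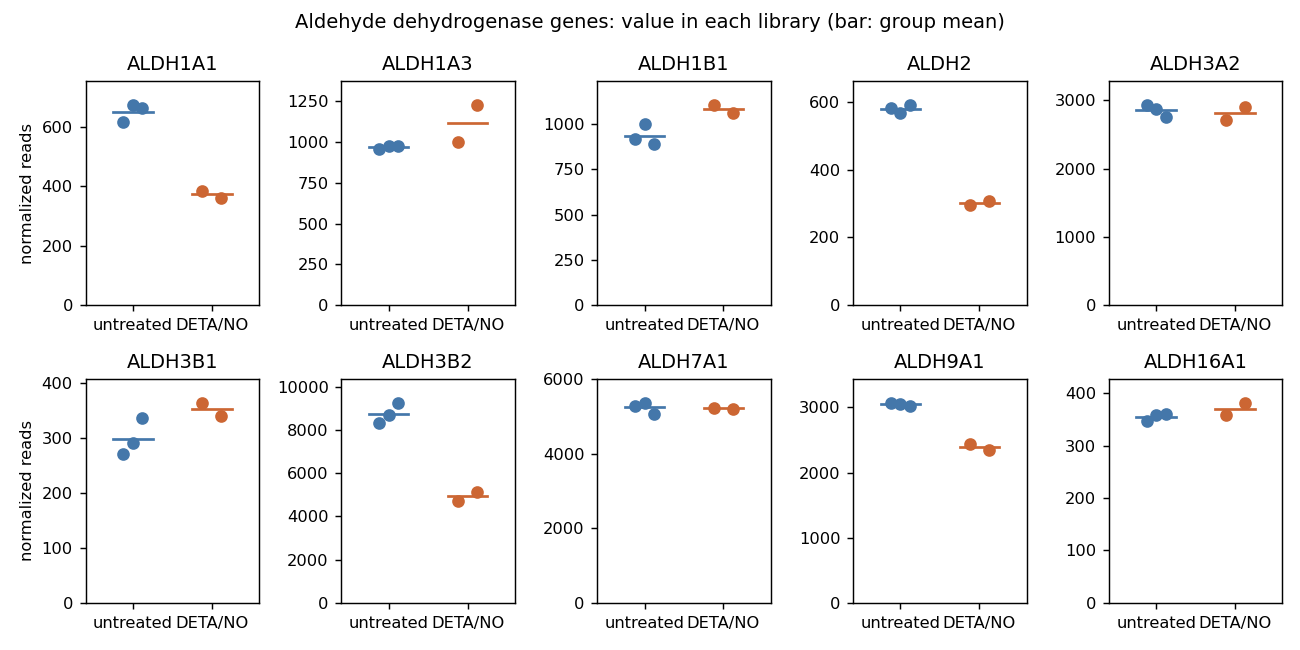
Normalized reads (vertical axis, from 0, a separate scale per gene) of the 10 aldehyde dehydrogenase genes in the 3 untreated and 2 DETA/NO libraries. Points are libraries and bars are group means. The points of ALDH1A1, ALDH2, ALDH3B2 and ALDH9A1 lie lower under DETA/NO with no overlap, and those of ALDH3A2, ALDH7A1 and ALDH16A1 overlap.

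ALDH1A1, the cytosolic retinaldehyde dehydrogenase most often used as a stem-like marker, lies on the minus strand of chromosome 9 at 72900662 to 73080442 (ENSG00000165092.12, GENCODE 29, GRCh38). Untreated libraries 1 to 3 had 615, 673 and 664 normalized reads, while the shared DETA/NO library had 386 and DETA/NO library 3 had 361. Both DETA/NO libraries were far below the lowest untreated one. The means were 651 ± 31.6 (SD, n = 3) and 373 ± 17.5 (SD, n = 2), a log2 fold change of -0.80 ± 0.072 (SE; limma adjusted p = 9.5e-11). Across all other settings it lay between -0.85 and -0.75.

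ALDH1A3, the other retinaldehyde dehydrogenase of the members, lies on the plus strand of chromosome 15 at 100877714 to 100916626 (ENSG00000184254.16). It had 957, 975 and 973 normalized reads in untreated libraries, 1002 in the shared DETA/NO library and 1226 in DETA/NO library 3. The shared library was just above the untreated ones, and library 3 was well above them. With all libraries the log2 fold change was 0.19 ± 0.065 (SE; limma adjusted p = 0.0172). It was 0.05 (adjusted p = 0.624) without DETA/NO library 3, 0.34 (adjusted p = 7.07e-05) without the shared library, and its adjusted p was 0.065 and 0.0523 without untreated libraries 1 and 2. Other genes overlapped 82.3% of its span and 30.4% of its exon bases, on both strands, and the labels and notes do not say whether counting used strand.

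Within a library, the ratio of ALDH1A3 to ALDH1A1 normalized reads does not depend on the scaling between libraries. It was 1.56, 1.45 and 1.46 in untreated libraries and 2.60 and 3.40 in the shared DETA/NO library and DETA/NO library 3. Both DETA/NO ratios were above all untreated ones. These ratios are a description, with no test.

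ALDH1A2, the third retinaldehyde dehydrogenase of the family, is not among the 10 members. It had 841, 855 and 815 normalized reads in untreated libraries and 1058 and 1129 in DETA/NO libraries. Both DETA/NO values were above all untreated ones. Its log2 fold change was 0.38 ± 0.056 (SE; limma adjusted p = 1.23e-06), and it was called under every other setting. So of the 3 ALDH1A genes, 1 fell and 2 rose. The rise of ALDH1A3 rested on DETA/NO library 3, and its log2 fold change without that library was 0.05. The difference between the changes of the 3 genes was not tested.

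ALDH2 and ALDH1B1 are the mitochondrial members that clear acetaldehyde, and ALDH2 also releases nitric oxide equivalents from nitroglycerin. ALDH2, on the plus strand of chromosome 12 at 111766887 to 111817529 (ENSG00000111275.12), had 582, 567 and 591 normalized reads in untreated libraries and 295 and 308 in DETA/NO libraries. This was the largest fold change among the 10 members, with no overlap between the groups. The means were 579.9 ± 11.9 (SD, n = 3) and 301 ± 9.14 (SD, n = 2), a log2 fold change of -0.94 ± 0.075 (SE; limma adjusted p = 5.2e-12). It lay between -0.97 and -0.91 in all other settings. Other genes overlapped 48.6% of the ALDH2 span and 7.08% of its exon bases.

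ALDH1B1, a gene of 2 exon blocks on the plus strand of chromosome 9 at 38392664 to 38398661 (ENSG00000137124.7), had 917, 1001 and 891 normalized reads in untreated libraries and 1105 and 1061 in DETA/NO libraries. The DETA/NO values were above the highest untreated one by less than the untreated range. ALDH1B1 had a log2 fold change of 0.21 ± 0.057 (SE; limma adjusted p = 0.0032). Of the 16 other settings, it missed the threshold in limma without trend and robust options (adjusted p = 0.0775). The ratio of ALDH1B1 to ALDH2 within a library was 1.51 to 1.76 in untreated and 3.45 to 3.75 in DETA/NO libraries.

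The ALDH3 members act on long-chain and lipid-derived aldehydes. ALDH3B2, on the minus strand of chromosome 11 at 67662162 to 67681200 (ENSG00000132746.14), had the highest normalized reads of the members, with 8324, 8693 and 9264 in untreated libraries and 4726 and 5149 in DETA/NO libraries. Every DETA/NO value was far below the lowest untreated one. The fitted log2 fold change was -0.83 ± 0.045 (SE; limma adjusted p = 6.63e-10), and it lay between -0.89 and -0.77 in all other settings. No other gene overlapped its span.

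ALDH3B1, its neighbour on chromosome 11 at 68008578 to 68029282 on the plus strand (ENSG00000006534.15), had 270.5, 291 and 336 normalized reads in untreated libraries and 365 and 341 in DETA/NO libraries. The lower DETA/NO value was next to the highest untreated one. ALDH3B1 had a log2 fold change of 0.24 ± 0.094 (SE; limma adjusted p = 0.0383). The call was lost in 8 of 16 other settings, with adjusted p of 0.192 and 0.102 without untreated libraries 1 and 2, 0.22 without the shared DETA/NO library, 0.0502 without DETA/NO library 3 and 0.147 in DESeq2. The ratio of ALDH3B2 to ALDH3B1 was 27.5 to 30.8 in untreated and 13.0 to 15.1 in DETA/NO libraries. These are close relatives in sequence, and the labels and notes do not say how reads matching both were counted.

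ALDH3A2, the fatty aldehyde dehydrogenase of the endoplasmic reticulum, lies on chromosome 17 at 19648136 to 19677598. It had 2931, 2873 and 2756 normalized reads in untreated libraries and 2719 and 2906 in DETA/NO libraries, and the groups overlapped. Its log2 fold change was -0.02 with a 95% interval of -0.10 to 0.06 (limma adjusted p = 0.706).

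The last 3 members have other substrates or none known. ALDH9A1, which makes the carnitine precursor from trimethylaminobutyraldehyde, lies on the minus strand of chromosome 1 at 165662216 to 165698863 (ENSG00000143149.12). It had 3073, 3049 and 3030.4 normalized reads in untreated libraries and 2447 and 2346 in DETA/NO libraries. The untreated values were close together and all above both DETA/NO values. The means were 3051 ± 21.2 (SD, n = 3) and 2396 ± 70.8 (SD, n = 2), a log2 fold change of -0.35 ± 0.038 (SE; limma adjusted p = 4.72e-09).

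ALDH7A1, an enzyme of lysine breakdown on chromosome 5 at 126531200 to 126595418, had 5282, 5373 and 5082 normalized reads in untreated libraries and 5242 and 5197 in DETA/NO libraries. Both DETA/NO values lay within the untreated range. The log2 fold change was -0.01 with a 95% interval of -0.08 to 0.06 (limma adjusted p = 0.893). ALDH16A1, an atypical member on chromosome 19 at 49453169 to 49471048, had 347, 359 and 360.4 normalized reads in untreated libraries and 359 and 382 in DETA/NO libraries. The groups overlapped, with a log2 fold change of 0.06 and a 95% interval of -0.11 to 0.23 (limma adjusted p = 0.604). The ratio of ALDH9A1 to ALDH7A1 was 0.567 to 0.596 in untreated and 0.451 to 0.467 in DETA/NO libraries.

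**Figure D2:**
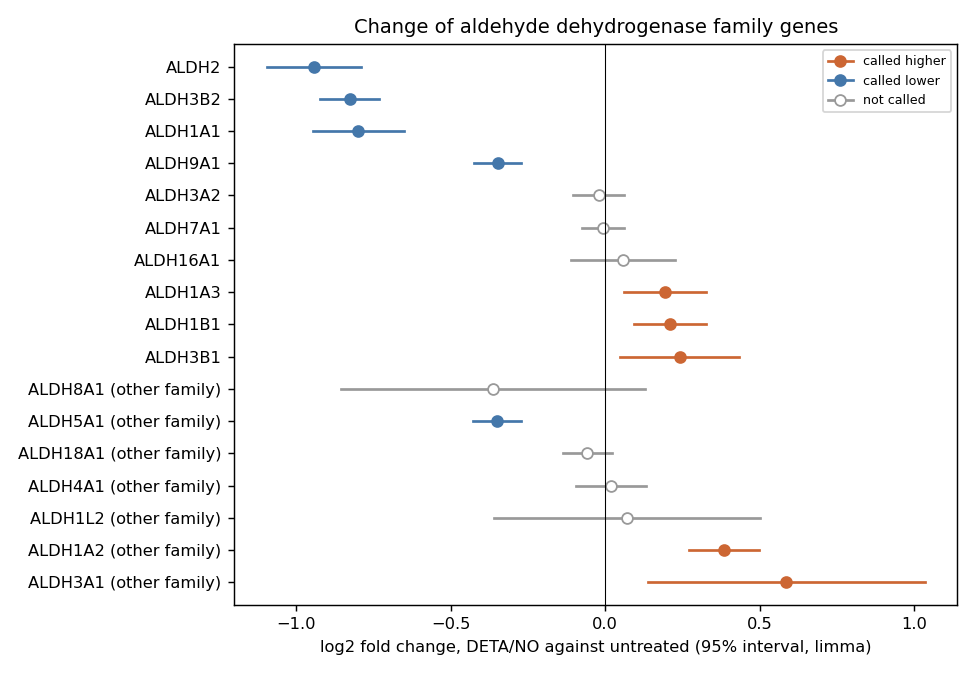
Log2 fold change, DETA/NO against untreated, with its 95% interval from limma (horizontal axis) for the 10 members and the 7 other tested family genes. Filled points were called. ALDH2, ALDH3B2 and ALDH1A1 lie between -0.94 and -0.80, and the called rises among the 10 members lie between 0.19 and 0.24.

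Levels of different genes were compared as normalized reads per kb of exon (exons of the GENCODE 29 basic set, merged per gene). In untreated libraries ALDH3B2 was highest, at 3275 ± 177 (SD, n = 3). ALDH9A1 followed at 1132 ± 7.85, ALDH7A1 at 966 ± 27.4 and ALDH3A2 at 689.7 ± 21.6. Then came ALDH1A1 at 309 ± 15.0 and ALDH1B1 at 305 ± 18.7, whose ranges overlapped, and ALDH1A3 at 178 ± 1.87. ALDH16A1 at 113 ± 2.36 and ALDH3B1 at 102 ± 11.5 also overlapped, and ALDH2 was lowest at 60.4 ± 1.24. All other neighbours in this order had ranges that did not overlap.

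Under DETA/NO the order per kb was different. ALDH7A1 at 961 ± 5.88 (SD, n = 2) stood above ALDH9A1 at 889 ± 26.3. ALDH1B1 at 353 ± 10.2 and ALDH1A3 at 205 ± 29.2 stood above ALDH1A1 at 177 ± 8.31. ALDH3B1 at 120.3 ± 5.70 and ALDH16A1 at 117 ± 5.10 overlapped. ALDH3B2 remained highest at 1846 ± 112 and ALDH2 lowest at 31.4 ± 0.951. The labels and notes do not say over which features reads were counted, and per kb of the whole gene span ALDH1B1 came second and ALDH1A1 last in both groups.

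**Figure D3:**
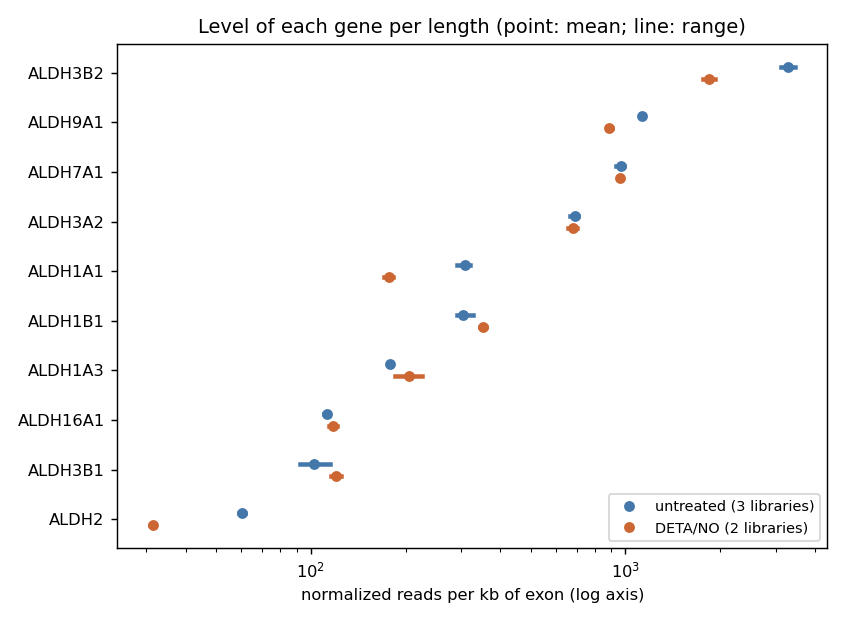
Normalized reads per kb of exon (horizontal log axis) of the 10 members, ordered by their untreated level. Points are group means over 3 untreated and 2 DETA/NO libraries, and lines span the libraries. ALDH3B2 is highest and ALDH2 lowest in both groups, and ALDH1A1 drops from 309 to 177, below ALDH1A3 at 205.

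Summed over the 10 members, untreated libraries had 23298 to 23948 normalized reads and DETA/NO libraries 18644 and 19275.5. ALDH3B2 alone had a mean of 8760.3 in untreated and 4937 in DETA/NO libraries, and this gene made up most of the difference between the sums.

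Of the 9 other genes of the family, 7 passed the filter, 2 rose and 1 fell, so 42.9% of those tested were called, close to the 43.4% of all tested genes. Besides ALDH1A2, the called rise was that of ALDH3A1, an aldehyde dehydrogenase abundant in cornea and inducible by aryl hydrocarbons, which had 33.5, 35.3 and 51.8 normalized reads in untreated libraries and 52.1 and 68.4 in DETA/NO libraries. One untreated library was level with the lower DETA/NO one. The log2 fold change was 0.59 ± 0.220 (SE; limma adjusted p = 0.0305), and the adjusted p was 0.122 and 0.0955 without untreated libraries 1 and 2, 0.296 without DETA/NO library 3 and 0.145 in DESeq2. Without any 1 of those 3 libraries the count of rises was 1.

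ALDH5A1, the mitochondrial succinic semialdehyde dehydrogenase of GABA breakdown, was the called fall. It had 3567, 3636 and 3404 normalized reads in untreated libraries and 2699 and 2846 in DETA/NO libraries, with a log2 fold change of -0.35 ± 0.039 (SE; limma adjusted p = 5.88e-09). The groups did not overlap. Without untreated library 3 the count of falls was 2, with ALDH8A1 of kynurenine breakdown at a log2 fold change of -0.53 (adjusted p = 0.0436), against -0.36 with all libraries (adjusted p = 0.231).

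ALDH18A1 of proline synthesis had a log2 fold change of -0.06 (limma adjusted p = 0.254), ALDH4A1 of proline breakdown 0.02 (0.819) and the mitochondrial folate enzyme ALDH1L2 0.07 (0.818). ALDH1L1, its cytosolic counterpart, had 3, 1 and 2 recovered reads in untreated libraries and 0 in both DETA/NO libraries. ALDH6A1 of valine breakdown had 2 to 7 recovered reads in every library. Other genes overlapped 94.1% of the ALDH6A1 span, 84.0% of that of ALDH1L2 and 100% of that of ALDH4A1. Of 2580 protein-coding genes with over 90% of their span overlapped, 80.0% were listed at 0 in every library, against 14.2% of 7076 with none, so values near 0 in such genes are given only as listed.

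Among the retinoid genes around the ALDH1A enzymes more fell than rose. Of 31 genes of retinoid uptake, oxidation, binding, breakdown and response, 20 passed the filter, 2 rose and 10 fell, with a median log2 fold change of -0.22 (43.4% of all tested genes were called). The list was written with other results of these data known, so its direction is a description.

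PLAAT4, a retinoid-inducible phospholipase gene that the list held under its older name RARRES3, had 4610.4, 4664 and 4802 normalized reads in untreated libraries and 2184 and 2064 in DETA/NO libraries. Its log2 fold change was -1.14 ± 0.037 (SE; limma adjusted p = 8.76e-22). RARRES1, another gene named for its response to retinoic acid receptor ligands, had 49687, 49706 and 50114 in untreated and 35616 and 37107 in DETA/NO libraries (log2 fold change -0.46). In both genes every DETA/NO value was below every untreated one. TGM2, also listed for its response, went the other way at low values and was not called. It had 20.1, 8.83 and 6.47 in untreated and 19.9 and 18.0 in DETA/NO libraries (log2 fold change 0.79, limma adjusted p = 0.111).

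CYP26B1, which breaks down retinoic acid and is itself induced by it, had 529, 533 and 512 normalized reads in untreated libraries and 260.4 and 289 in DETA/NO libraries. The log2 fold change was -0.93 ± 0.080 (SE; limma adjusted p = 2.67e-11), and the groups did not overlap. CYP26A1, its relative, had 0 reads in all libraries, and other genes overlapped 89.4% of its span. DHRS3, which reduces retinaldehyde back to retinol, had 4054, 3962 and 3922 in untreated and 3293 and 3247 in DETA/NO libraries (log2 fold change -0.28, adjusted p = 6.53e-08).

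STRA6, the membrane receptor for retinol uptake, had a log2 fold change of -0.49 (limma adjusted p = 1.69e-10). RDH10, RDH11 and RDH13 of the retinol dehydrogenase family had -0.41, -0.37 and -0.29, and the groups overlapped in RDH13. RDH14, also tested, went the other way at 0.12 and was not called (limma adjusted p = 0.16). CRABP2, which carries retinoic acid to its receptors, had -0.26 (adjusted p = 0.00448). The genes of this paragraph, TGM2 above and RXRB below were named after their values were seen. Other genes overlapped 93.7% of RDH10, 86.2% of RDH14, 82.9% of CRABP2 and 71.4% of RDH11.

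The rises were LRAT, which stores retinol as esters, at 0.35 (limma adjusted p = 0.0208) and the receptor RARG at 0.12 (adjusted p = 0.0357). LRAT had 144, 169 and 144 normalized reads in untreated libraries and 211 and 178 in DETA/NO libraries. RARG lost the call in 10 of 16 other settings and LRAT in 5. The count of rises was 0 without the shared DETA/NO library and in DESeq2, and 1 without untreated library 1, untreated library 2 or DETA/NO library 3. Of the other receptors, RXRB fell by 0.21 on the log2 scale, and RARA (-0.12), RARB (-0.23) and RXRA (-0.09) did not pass.

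**Figure D4:**
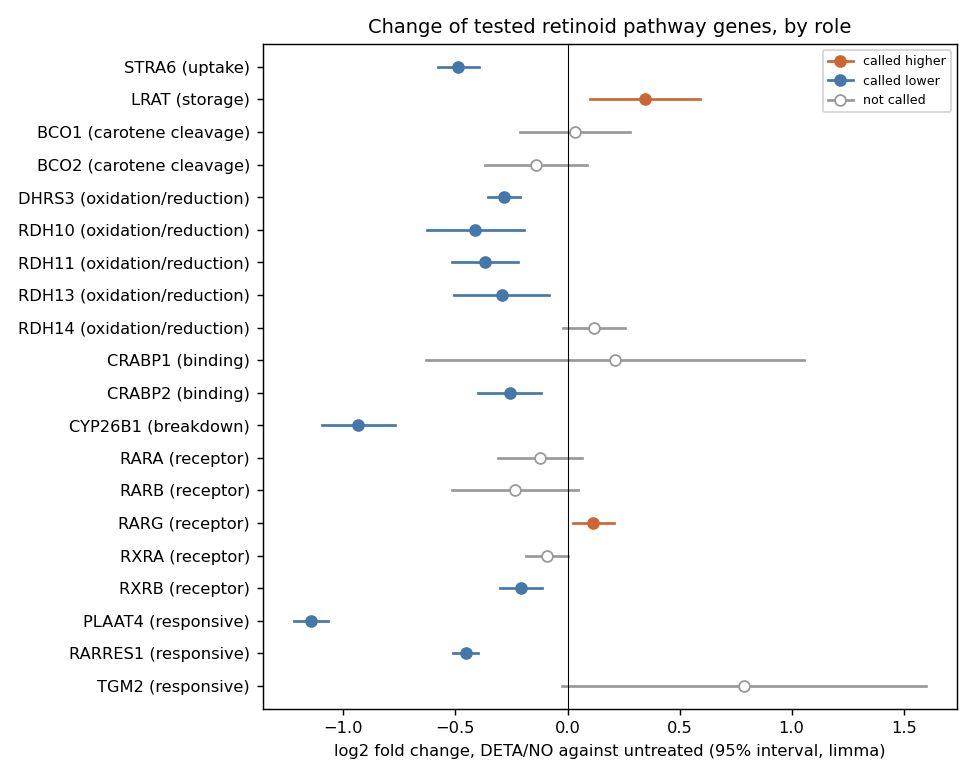
Log2 fold change, DETA/NO against untreated, with its 95% interval from limma (horizontal axis) for the 20 tested retinoid genes, ordered by role. Filled points were called. PLAAT4 (-1.14) and CYP26B1 (-0.93) lie farthest to the left, and LRAT and RARG are the called rises.

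Genes that make or take the aldehydes of the other members were mixed. Of 34 genes, 20 passed the filter, 2 rose and 7 fell, so 45% of those tested were called, close to the 43.4% of all tested genes. MAOA, an outer mitochondrial membrane oxidase that turns amines into aldehydes, had 28.7, 33.4 and 30.5 normalized reads in untreated libraries and 114 in each DETA/NO library (log2 fold change 1.86 ± 0.192 SE; limma adjusted p = 1.75e-09). SMOX, the spermine oxidase, rose by 0.46. SAT1, the acetyltransferase that starts polyamine export and breakdown, had 38296 to 42383 in untreated and 26860.4 and 29584 in DETA/NO libraries (log2 fold change -0.51). The groups did not overlap in any of the 3 genes.

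CHDH, which makes betaine aldehyde from choline, had a log2 fold change of -0.43 (limma adjusted p = 3.1e-07), and AADAT, an aminotransferase of lysine breakdown, -0.47 (adjusted p = 4.88e-06). ADH5, which oxidises the glutathione adduct of formaldehyde and reduces S-nitrosoglutathione, had 2982, 3074 and 2869.6 normalized reads in untreated libraries and 3142 and 3003 in DETA/NO libraries, with overlap (log2 fold change 0.05, 95% interval -0.03 to 0.13, adjusted p = 0.357). It was the only 1 of 8 alcohol dehydrogenase genes to pass the filter, and 5 of the 8 were at 0 in every library, each with at least 98.4% of its span overlapped.

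Of 20 genes used beside ALDH1A1 and ALDH1A3 to describe stem-like breast cells, 12 passed the filter, 6 rose and 2 fell, where 21.7% of all tested genes were called higher and 21.7% lower. The count of rises was 3 in limma without trend and robust options. The falls were CD24 and PROM1. CD24, a surface glycoprotein whose low level marks stem-like cells, had 109518, 114232 and 116911 normalized reads in untreated libraries and 69034 and 73947 in DETA/NO libraries (log2 fold change -0.67 ± 0.031 SE; limma adjusted p = 3.42e-15). PROM1, the gene of CD133, had 5419.9, 5511 and 5624 in untreated and 3489 and 3570.4 in DETA/NO libraries (log2 fold change -0.64). The groups did not overlap in either gene.

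CD44, the hyaluronan receptor whose high level marks stem-like cells, had 77652, 76854 and 75620.5 normalized reads in untreated libraries and 91974 and 92948 in DETA/NO libraries (log2 fold change 0.27 ± 0.026 SE; limma adjusted p = 2.82e-10). NT5E, the surface enzyme CD73, rose by 0.71 and the transcription factor KLF4 by 0.66. The markers thus moved in different directions: CD44 rose, CD24 fell, ALDH1A1 and PROM1 fell, and ALDH1A3 rose in a call that rested on DETA/NO library 3. The values of SOX2, SOX9 and THY1 were 0 throughout, and other genes covered 100% of their spans. CXCR1 was also at 0 in every library, but no other gene overlapped its span.

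Patterns near those of the marker members were sought among 16392 tested genes outside the family. Likeness was the largest absolute difference, over the 5 libraries, between 2 genes' log2 deviations from their untreated means. For ALDH1A1 the nearest genes were PDCD4 (0.0213), GPD1 (0.0347) and CREB3L2 (0.0438). PDCD4 had 4392, 4783 and 4632 normalized reads in untreated libraries and 2707 and 2531 in DETA/NO libraries. For ALDH1A3 they were PRSS8 (0.0384), AC011450.1 (0.0396) and AC099791.3 (0.0398). PRSS8 had 678, 676 and 679 in untreated libraries, 683 in the shared DETA/NO library and 845 in DETA/NO library 3. It was chosen for this likeness to ALDH1A3, so the shared pattern is no further finding.

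**Figure D5:**
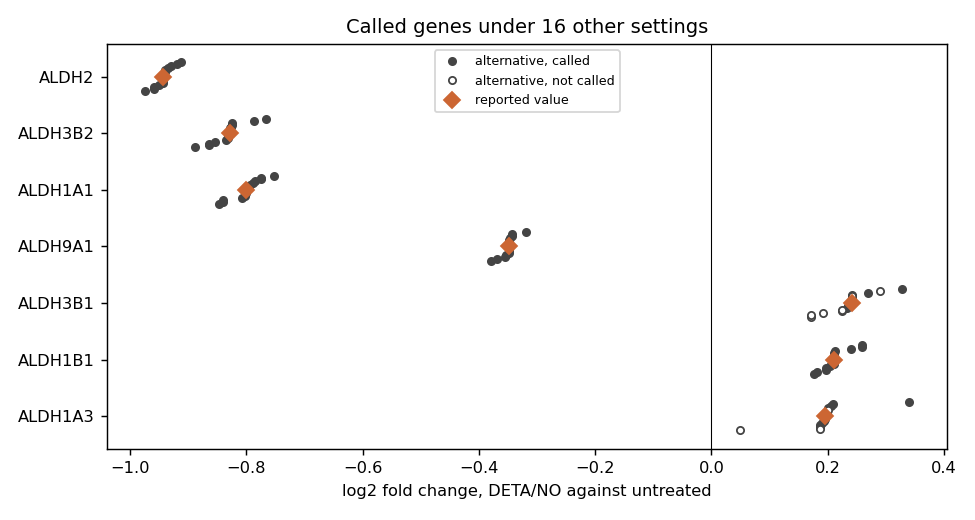
Log2 fold change (horizontal axis) of the 7 called members in the reported fit (diamonds) and 16 other settings (circles, filled where called). All circles of ALDH2, ALDH3B2, ALDH1A1 and ALDH9A1 are filled and lie left of 0. Those of ALDH3B1, ALDH1B1 and ALDH1A3 each include an open one or more, and 1 of ALDH1A3 is at 0.05.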

How the data were processed

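Libraries were made from total RNA of the cultured cells. The authors deposited 1 normalized read count (signal) per gene and sample. Per the submitters' processing notes, the tools included TopHat2 2.1.1, Bowtie2 2.5.0.0, featureCounts 2.0.3 and DESeq2 1.38.3, with GRCh38. The gene annotation, counting features and strand setting are not given in the sources used here. Dividing by 1 factor per library turned 100% of the values into whole reads (tolerance 0.01). Groups came from sample titles. The identical DETA/NO files were counted once, and their headers carry the same library letter.

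The main test was limma 3.58.1 (R 4.3.3; trend, robust) on log2(value + 1), fitted over all genes whose mean was at least 10. A fold change on that scale understates the change of low genes. As alternatives, each library was left out in turn, a replicate block was added, pseudocounts, filters and scalings were changed, and edgeR 4.0.16 and DESeq2 1.42.0 were run on recovered reads. The tests were checked once on simulated counts, with 50 of 16409 genes changed at each fold of 1.5, 2, 4 and 8. The share of false calls there was above the adjusted p threshold of 0.05 for limma and edgeR and below it for DESeq2. In these data 43.4% of genes were called, so the simulated share may not carry over. Adjusted p near the threshold are still taken as weak support. Rows whose names had turned into dates (27, with 0.246% of reads) were kept in the tests.

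Members, lists and tests were chosen with earlier results of these data known. Named were the members, the rest of the family, CYP26A1, CYP26B1, DHRS3, ADH5, CD44, CD24 and PROM1, up to 3 rising and 3 falling genes per other list by adjusted p, and the 3 nearest patterns of ALDH1A1 and ALDH1A3. RARRES3 was matched as PLAAT4 by synonym. Positions are from GENCODE 29. Python 3.11.15 and pandas 2.3.3 did the other steps.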

Additional observations from a re-analysis of the deposited data

How the results depend on the processing

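In limma without trend and robust options, 2262 genes in all were higher, with 0 members, 1 other family gene, 0 retinoid genes and 3 stem-like genes higher and 4 substrate route genes lower. DESeq2 called 1 other family gene and 0 retinoid genes higher. A minimum mean of 50 left 1 other family gene higher, since ALDH3A1 was under that minimum and was not fitted. TMM scaling and quantile normalization each left 1 retinoid gene higher. The causes of the other losses were not tested. Leaving out 1 library at a time gave 1 to 3 members, 1 to 2 other family genes and 0 to 2 retinoid genes higher, and 1 to 2 other family genes lower. edgeR on recovered reads called 3621 genes higher and 3480 lower. Levels per kb of gene span were added after seeing the data. A lone remaining DETA/NO library was assumed to vary like the others.

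Replicate numbers give no pairing that can be checked, since the shared DETA/NO library carries the numbers 1 and 2. Deviations of same-numbered libraries correlated at 0.029 (number 1), 0.0011 (number 2) and 0.030 (number 3) across genes. With a replicate block, the shared library as number 1, 3320 genes were higher and 3285 lower, with 2 members higher and 4 lower, 1 other family gene and 1 retinoid gene higher. Untreated library 2 then had no same-numbered DETA/NO library, so the fold changes of this block equal those without untreated library 2. As number 2, the letter inside its files (chosen after seeing the data), the block gave 3143 higher and 3178 lower, with 2 members higher and 4 lower, 1 other family gene and 1 retinoid gene higher. There untreated library 1 had no partner, and the fold changes equal those without untreated library 1.

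Directions turned only in genes that were not called. ALDH4A1 had a log2 fold change of -0.014 with the block as number 2, and -0.014 to 0.049 when 1 library was left out. ALDH7A1 had 0.011 with the block as number 1, and -0.029 to 0.011 when 1 library was left out. ALDH3A2 ran from -0.069 to 0.027 and ALDH1L2 from -0.10 to 0.25 in the same way. Members held 266 to 10024 recovered reads per library, so depth limits ALDH2, ALDH3B1 and ALDH16A1 most.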
